A study of Drosophila melanogaster with 4 samples.

Results

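The short autosomal H4K20me1 peaks are the narrowest intervals in a map of this histone mark from Drosophila melanogaster wing discs, the sacs of larval epithelium from which wing and notum develop. They were chosen by their measured width and their position in the authors' list of peaks, in build dm3. All peaks on the main arms of chromosomes 2, 3 and 4 with a width of at most 1000 bp were kept. This gave 887 members of 6497 autosomal peaks (13.7%) and of 7885 peaks in all. The members covered 700.4 kb, which was 3.57% of the length under autosomal peaks, and held 4.51% of the summed autosomal score. Width chose the members, and width and score come from the same reads, so both are descriptions here.

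H4K20me1 is the monomethylated form of lysine 20 on histone H4. It is placed by the enzyme PR-Set7, which is needed for mitosis and for chromatin compaction in flies and mammals. The mark is the substrate from which a further enzyme, encoded by Hmt4-20 in the fly, makes the higher methylated forms. In mammalian cells the mark often lies as broad blocks over gene bodies.

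The peaks come from 1 chromatin immunoprecipitation (ChIP) library, made with an anti-H4K20me1 antibody from cross-linked, sonicated wing discs at the third larval instar, with larvae reared at 25 °C. These larvae are the wild type of the series, from Act5c-Gal4 parents. Their labelled genotype joins the alleles y1 and w* on the first chromosome with the driver P{Act5C-GAL4}25FO1 over the balancer CyO, which carries y+. The driver expresses the yeast activator GAL4 under an actin promoter, and no RNAi transgene is named for it. The other 3 samples, an input library of the same genotype, wild-type RNA and Polycomb RNAi RNA, were not analysed here. Whole discs mix epithelial, myoblast and other cells, and with 1 library there is no replicate error and no test, so "more" and "less" below describe this list of peaks.

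All peaks of the list lay on a 200 bp grid, so that every width was a whole number of 200 bp windows. Among the members, 14 were 200 bp wide, 77 were 400 bp, 191 were 600 bp, 264 were 800 bp and 341 were 1000 bp. The number of peaks thus grew with each added window. It grew once more just past the limit, to 425 peaks of 1200 bp and 440 of 1400 bp, and stood at 416 peaks of 1600 bp. The limit of 1000 bp falls on the rising side of that distribution, and no gap in width sets the members apart from the next peaks. The median width was 800 bp for the members and 2200 bp for all autosomal peaks.

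The authors' score per peak was low in most members. Their median score was 57.6 (quartiles 47.4 and 80.1, range 41.3 to 403.9), against 125.7 (70.8 and 264.0) for the 5610 autosomal peaks over 1000 bp. The lowest score of the whole list was 41.3, and 511 members (57.6%) lay within 1.5 times that value, compared with 18.6% of the longer autosomal peaks. Most short peaks are therefore close to the lowest score the list contains. At the other end, 20 members (2.25%) scored over 200, and 34.0% of the longer peaks did. Across the limit the scores were similar, with a median of 57.6 and a highest score of 379.4 at 1000 bp, and a median of 63.0 and a highest score of 703.7 at 1200 bp.

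Per kb of width, the median member scored above most of the longer peaks. The median score per kb was 79.1 in the members (quartiles 58.0 and 116.2), 49.7 in autosomal peaks over 1000 bp and 93.1 in the 160 wide autosomal domains, defined here as peaks of at least 10 kb. The members thus lay between the bulk of the longer peaks and the wide domains, and 340 of them (38.3%) exceeded the median of the wide domains. The lowest score in the list sets a lower edge to this measure, because a peak of 200 bp that reaches 41.3 has at least 206.5 per kb and a peak of 1000 bp has at least 41.3 per kb. At 400 bp the edge is 103.2 per kb, so members of 200 and 400 bp exceed the median of the wide domains at any listed score. At 2000 bp it is only 20.6 per kb, so the ranking of members above longer peaks is partly set by width. The medians of the members followed the lower edge, from 248.2 at 200 bp through 135.5, 95.4 and 76.2 to 57.6 at 1000 bp. Across the 887 members the Spearman correlation of width was -0.56 with score per kb and 0.09 with score, a description of peaks from 1 library that share depth. Short X peaks, chosen with the same width limit on the X, had a similar score per kb, with a median of 80.7 over 206 peaks.

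**Figure D1:**
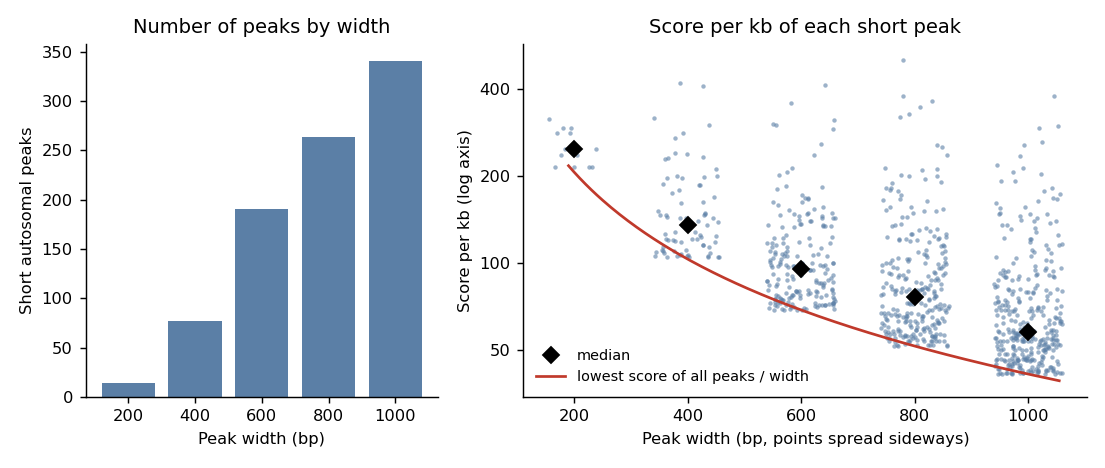
Left, the number of short autosomal peaks at each width in bp. Right, the score per kb of each of the 887 members (points, log axis) with the median at each width (diamonds) and the lowest score of all peaks divided by width (line). The points crowd on the line, and the medians fall from 248.2 at 200 bp to 57.6 at 1000 bp.

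No source used here states the scale of the score, but it could be worked out from the values, which gives the depth behind each member. The 21 peaks of a single window in the whole list had 8 distinct scores. All 8 equalled the negative natural logarithm of the Poisson probability of a whole number of tags (mapped reads counted in a window) at a mean of 4.02 tags per window, to within 2.5e-10. With that mean, and the score of a wider peak taken as the sum over its filled windows, all 887 members gave 1 total number of tags at a tolerance of 1e-08. For 874 of them only 1 set of tag numbers per window was found. The search took the first and last windows of a peak as filled, with at most 2 empty windows in a row. With the mean set 2% lower or 2% higher, 0 members could be solved. In these 874 members the least filled window held 7 tags. A peak of 200 bp would need 33 tags to reach the lowest score of the list, since 32 tags would score 41.0 and 33 tags score 43.1.

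In tags, the members were small but above the mean per window that the score uses, as the lowest score of the list requires. That mean is 1 value for all windows. The ratio to it is not an enrichment over the input library, which was not used here. The median member held 64 tags in its filled windows (quartiles 55 and 78, range 33 to 222), and the 206 short X peaks also had a median of 64. Per filled window this was a median of 4.54 times the mean (quartiles 3.98 and 5.59, range 3.03 to 13.2). The narrower the member, the higher this ratio, from a median of 4.14 at 1000 bp and 4.40 at 800 bp to 5.97 at 400 bp and 8.95 at 200 bp. The lowest score of the list sets a lower edge to this ratio too, and the medians follow it. The lowest ratio was 8.21 at 200 bp, 4.97 at 400 bp and 3.03 at 1000 bp. The 14 members of 200 bp held 33 to 42 tags where the mean gives 4.02. The fullest window of a member held a median of 27 tags, with a range of 15 to 92. Short peaks were not always unbroken. All windows were filled in 651 of 887 members (73.4%), in 79.5% of those of 800 bp and in 49.6% of those of 1000 bp, so that many members at the upper width hold 1 or 2 windows that add nothing to the score.

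Tag numbers that are multiples of 3 were more frequent than their neighbours. Of 3147 filled windows in the members with 1 solution, 57.5% held a multiple of 3 tags, 23.7% left a remainder of 1 and 18.8% a remainder of 2, where an even spread would put 33.3% in each. There were 339 windows with 9 tags but 59 with 8 and 81 with 10, and 310 windows with 12 tags but 69 with 11 and 93 with 13. In 155 of 874 members (17.7%) every filled window was a multiple of 3, and in 58 (6.64%) none was. Of the tag totals of all 887 members, 346 (39.0%) were multiples of 3. The share was 58.2% in the 711 windows of short X peaks and lay between 55.8% and 60.7% on the 4 large autosomal arms. On chromosome 4 it was lower, 47.7% of only 44 windows. The origin of the pattern was not tested. The counting intervals given below treat tags as independent, and they would be too narrow if some reads were counted more than once.

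**Figure D2:**
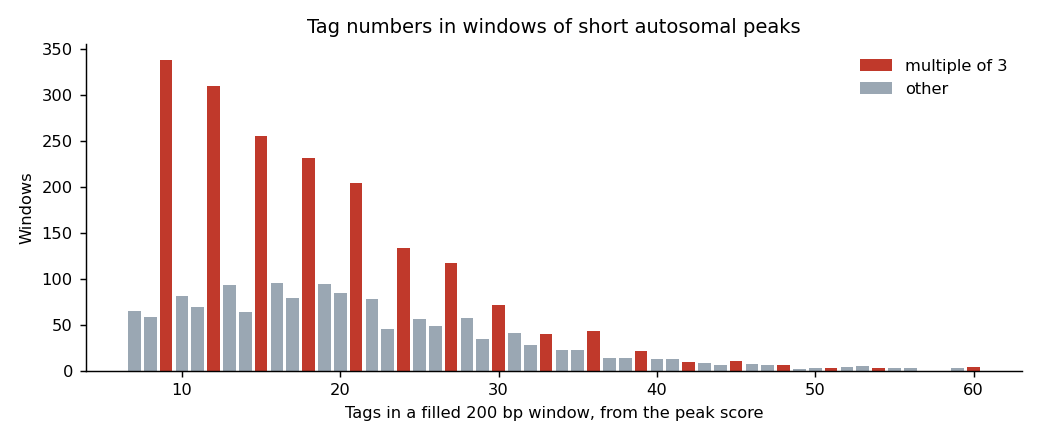
The number of filled 200 bp windows in short autosomal peaks (vertical axis) at each number of tags, solved from the peak scores (horizontal axis, up to 60 tags). Windows with a multiple of 3 tags stand above their neighbours, such as 339 windows with 9 tags beside 59 with 8 and 81 with 10.

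Short peaks were found on every autosomal arm, at similar densities. There were 186 on 2L, 182 on 2R, 246 on 3L, 262 on 3R and 11 on chromosome 4. Per Mb of the span between the first and the last peak of an arm this was 8.12 on 2L, 8.99 on 2R, 10.7 on 3L, 9.39 on 3R and 9.04 on chromosome 4, and 9.20 on the X. As a share of the peaks of an arm, short ones were 14.2% on 2L (exact Clopper-Pearson 95% interval 12.4 to 16.2), 11.4% on 2R (9.92 to 13.1), 15.2% on 3L (13.5 to 17.1) and 13.4% on 3R (11.9 to 15.0). On the X the share was 15.1% (13.2 to 17.1). These intervals treat peaks as independent draws and cover counting error only. The interval of 2R lies below those of 3L and the X, and the other pairs among 2L, 2R, 3L, 3R and the X overlap.

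On chromosome 4, the small and largely heterochromatic autosome, the share was higher and the density was not. Of its 28 peaks, 11 were short (39.3%, exact interval 21.5 to 59.4, above those of the other arms), while its peaks as a whole were sparse, at 23.0 per Mb against 57.1 to 78.6 per Mb on the large arms. It had no domain of 10 kb or more, and its median peak width was 1300 bp. Its 11 members had a median score of 79.2, where the medians of the large arms were 54.9 to 58.2, and held 42 to 139 tags. They were also far from other peaks, with a median gap of 20.6 kb, where the members on the large arms had 800 to 1000 bp. The longer peaks of chromosome 4 had a median gap of 2200 bp, and those of the large arms 800 to 1000 bp. With the width limit at 600 bp the share was 10.7% (3 peaks) on chromosome 4 and 4.34% over all autosomal peaks, and with the limit at 2000 bp it was 85.7% (24 peaks) and 46.0%. Only 28 peaks lie behind the values of chromosome 4.

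**Figure D3:**
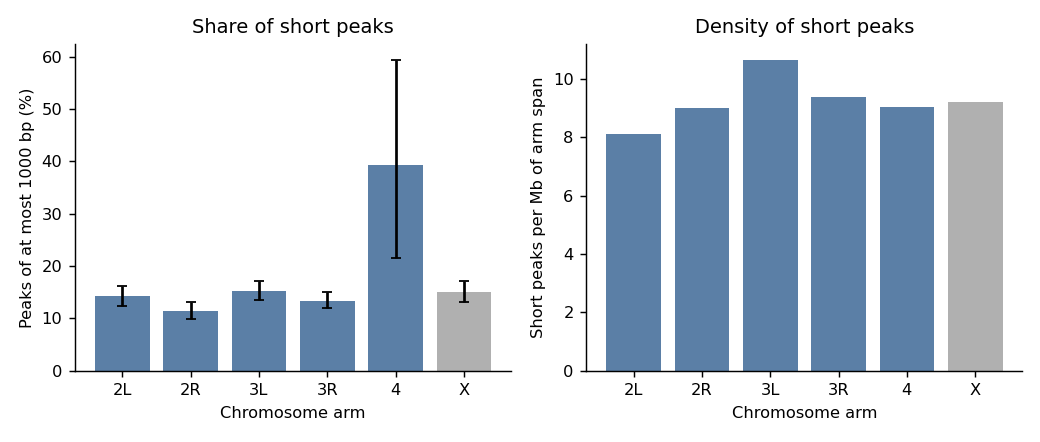
Left, the percentage of the peaks on each arm that are at most 1000 bp wide, with exact Clopper-Pearson 95% intervals as bars. Right, the number of short peaks per Mb of arm span. Autosomal arms are blue and the X is grey; chromosome 4 has the largest share, 39.3%, and a density of 9.04 per Mb within the range of the other arms.

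Along the large arms the members were spread from end to end. With the span of each arm cut into 10 equal pieces, 2L held 12 to 27 members per piece, 2R 10 to 32, 3L 12 to 33 and 3R 16 to 39. The most were in piece 2 of 3R (39 of 234 peaks, 16.7%) and the fewest in piece 1 of 2R (10 of 89 peaks, 11.2%), counted from the lowest coordinate. Summed over the autosomal arms, the share of short peaks ranged from 12.2% in piece 4 to 16.3% in piece 5. Within single arms it varied more. The lowest and highest shares were 7.95% (piece 2) and 19.8% (piece 8) on 2L, and 6.45% (piece 9) and 17.6% (piece 3) on 2R. They were 10.3% (piece 4) and 23.1% (piece 9) on 3L, and 10.2% (piece 9) and 16.7% (piece 2) on 3R. The highest share thus lay at higher coordinates than the lowest on 2L and 3L, and at lower coordinates on 2R and 3R. In bins of 1 Mb, the median was 9 members (quartiles 6 and 12), and 2 of 98 bins held none. The fullest bins held 19 members each and lay at chr2R:6000001-7000000, where 90 peaks were called, at chr3L:21000001-22000000 with 96 peaks and at chr3R:1000001-2000000 with 100 peaks. Bins with more of the longer peaks tended to hold more members, with a Spearman correlation of 0.42 over the 98 bins. This is a description, since bins share the library.

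**Figure D4:**
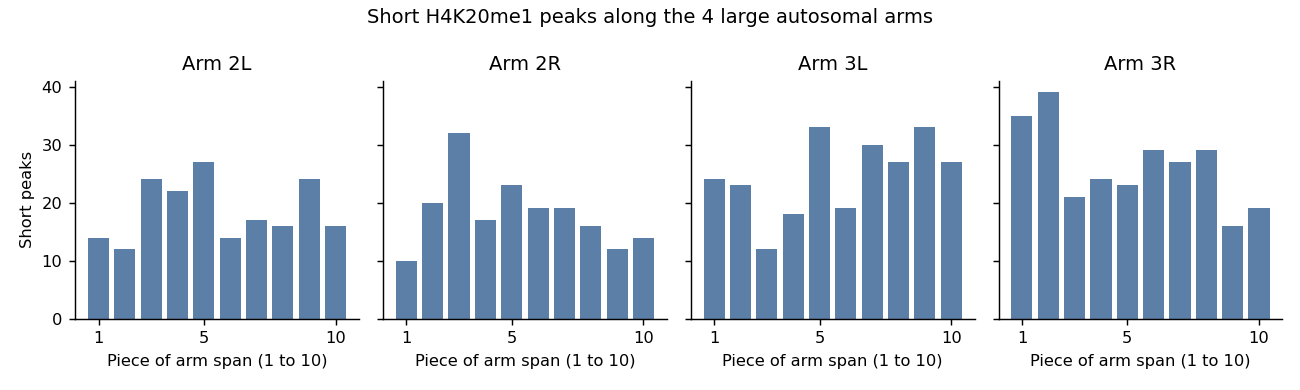
The number of short peaks (vertical axis) in each of 10 equal pieces of the span between the first and last peak (horizontal axis) on arms 2L, 2R, 3L and 3R. None of these pieces is empty. The lowest holds 10, piece 1 of 2R, and the highest 39, piece 2 of 3R. The counts are not divided by the number of peaks in each piece.

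Most short peaks lay close to another peak. The median gap from the edge of a member to the nearest peak of any width was 800 bp (quartiles 600 and 2500 bp), and the longest was 229.2 kb. The median of autosomal peaks over 1000 bp was also 800 bp (quartiles 600 and 2400 bp). No gap in the list was under 600 bp, and 303 members (34.2%) had a neighbour at exactly that distance, as had 35.2% of the longer peaks. In all, 509 members (57.4%) lay within 1 kb of another peak, 255 between 1 and 5 kb, 98 between 5 and 20 kb and 25 (2.82%) beyond 20 kb. Of the longer autosomal peaks, 57.9% lay within 1 kb and 2.03% beyond 20 kb. By contrast, 75.6% of the wide domains had a peak within 1 kb. For short X peaks it was 65.0%. In each of these classes the members and the longer autosomal peaks had close shares, and no test was made.

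**Figure D5:**
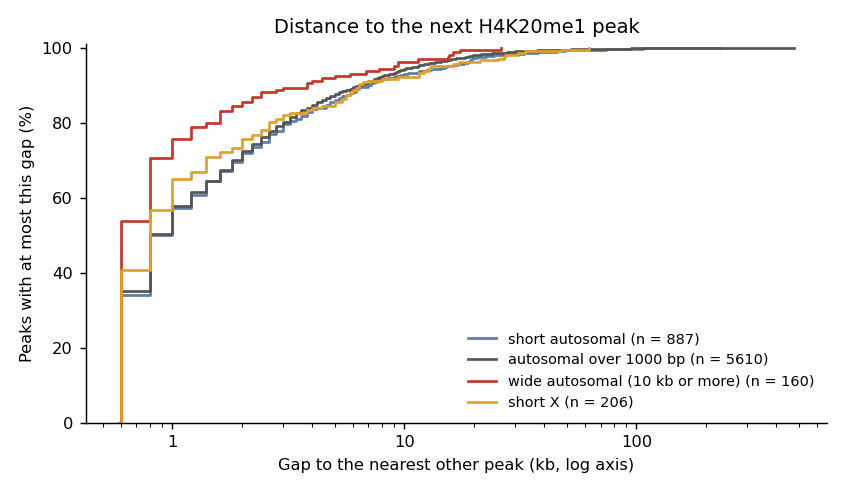
The percentage of peaks (vertical axis) whose nearest other peak lies at most a given distance away (horizontal axis, kb, log axis), for short autosomal peaks, autosomal peaks over 1000 bp, wide autosomal domains and short X peaks. The curves of the first 2 sets nearly coincide, with 57.4% and 57.9% within 1 kb, and the wide domains lie above them with 75.6%.

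Members inside groups of close peaks had higher median scores than lone ones, while the scores overlapped widely. Over the 887 members the Spearman correlation of gap and score was -0.15, a description of peaks from 1 library. The median score was 60.7 (quartiles 49.0 and 84.7) in the 509 members within 1 kb of another peak, 54.9 (46.2 and 69.1) between 1 and 5 kb, 52.7 (46.4 and 66.7) between 5 and 20 kb and 60.6 (47.4 and 81.7) in the 25 beyond 20 kb. The quartiles of all 4 classes overlapped widely. In longer autosomal peaks the median scores fell further over the same classes, from 149.7 through 111.7 and 81.2 to 79.1. Per kb of width the falls were more alike. These medians were 83.5, 74.4, 66.1 and 79.2 in the members and 54.9, 46.2, 39.5 and 39.7 in the longer peaks. When peaks no more than 1 kb apart were joined into chains, 378 members (42.6%) stood alone, 384 (43.3%) were the first or last peak of a chain and 125 (14.1%) lay inside. The shares in longer autosomal peaks were 42.1%, 43.5% and 14.4%. The median score was 54.2 for lone members, 59.1 at the end of a chain and 69.0 inside. In longer autosomal peaks these medians also rose, and more steeply, from 100.8 through 140.7 to 188.6. There were 446 chains with at least 1 member, of a median of 2 peaks and a median span of 6.2 kb, and 18 of these held short peaks only.

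The peaks beside a short peak were ordinary in width. Of 1771 direct neighbours of members, 248 (14.0%) were short and the median width was 2200 bp, compared with 13.6% and 2200 bp for the neighbours of longer autosomal peaks. Longer peaks made up 86.3% of all autosomal peaks, and no random order of widths was drawn for comparison. Of the 887 members, 657 (74.1%) had a longer peak, or the end of the list, on both sides. A further 178 formed 89 pairs, 48 formed 16 runs of 3 and 4 formed a single run of 4. That run spanned 22.6 kb at chr3L:20445001-20467600, with scores of 70.2, 47.4, 52.3 and 46.5 and a longest gap of 18.2 kb inside it. The chain with the most members, 4 of its 7 peaks, lay on the same arm at chr3L:21069201-21093600, in 24.4 kb.

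Few short peaks lay near a wide domain, and the shares were close to those of autosomal peaks of 1200 bp to under 10 kb. The median distance from a member to the nearest domain of at least 10 kb on its arm was 236.0 kb (quartiles 81.2 and 514.3 kb), over the 876 members on arms that have such a domain. For autosomal peaks of 1200 bp to under 10 kb it was 206.4 kb (67.2 and 466.8 kb). Within 5 kb of a wide domain lay 32 members (3.65%), within 10 kb 59 (6.74%) and within 50 kb 169 (19.3%). The shares in the intermediate peaks were 4.73%, 7.40% and 21.1%. Members within 10 kb had a median score of 56.5 and those farther away 57.4. In the intermediate peaks these medians were 187.2 and 118.4. Per kb of width the medians were 80.0 and 78.3 in the members and 56.8 and 48.2 in the intermediate peaks. Of the 160 wide domains, 31 (19.4%) had a member as direct neighbour, and in 15 it lay within 1 kb. A peak of any width lay within 1 kb of 121 wide domains. Of the 320 direct neighbours of wide domains, 31 (9.69%) were short, compared with 13.6% of the neighbours of all longer autosomal peaks. Short peaks were 13.7% of autosomal peaks, and no test was made. The distance depends on what counts as wide, the median being 21.6 kb to the nearest of 936 peaks of at least 5 kb.

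A few members were strong. The highest score and score per kb belonged to an 800 bp peak at chr3L:14962601-14963400, with a score of 403.9, 504.9 per kb and 213 tags (exact Poisson 95% interval 185.4 to 243.6), of which 92 lay in its fullest window. The peak as a whole held 13.2 times the mean per filled window. It lay 167.4 kb from the peak before it and 1200 bp from the one after it. The next score was that of a 1000 bp peak at chr2R:8757801-8758800, with a score of 379.4 and 222 tags (193.8 to 253.2), the largest number of tags in a member. An 800 bp peak at chr3R:8193601-8194400 had a score of 303.9 and 176 tags (151.0 to 204.0), with its nearest neighbour 11.6 kb away. These 3 members lay 45.2 to 935.4 kb from the nearest wide domain.

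The other leading members were narrower or weaker. By score per kb the second was a 400 bp peak at chr3L:21017801-21018200, with 420.1 per kb and 97 tags, 70 of them in 1 of its 2 windows. A 600 bp peak at chr2L:7830401-7831000 had 412.3 per kb and 142 tags. A 400 bp peak at chr2L:11809001-11809400 had 410.4 per kb and 99 tags, and it lay 1000 bp from a domain of 11200 bp. Next by score were 1000 bp peaks at chr3L:2767201-2768200, with 297.8 and 198 tags, and at chr2L:10262601-10263600, with 292.6 and 176 tags. On chromosome 4 the leading member by score per kb was an 800 bp peak at chr4:886001-886800, with 195.8 per kb and 123 tags. This last peak is named only as the leader of its arm, and the 5 highest by either measure lay on 2L, 2R, 3L and 3R.

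The most isolated members were all on chromosome 4. The peak at chr4:1284201-1285200 was the last on its chromosome and lay 229.2 kb from the one before it, with a score of 173.1 and 139 tags (116.9 to 164.1). The neighbouring members at chr4:221001-222000 and chr4:329001-329600 were 107.0 kb apart and 133.2 kb from the peaks on their other sides. They had scores of 79.2 and 47.4 and held 87 and 42 tags. The second of these had 2 filled windows of 3.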

How the data were processed

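Wing disc chromatin of 1 wild-type sample was immunoprecipitated for H4K20me1 and sequenced, per the labels' protocols. The authors deposited a list of peaks, each with a score, from this library. The build dm3 and the tools SICER, Bowtie 1.0.0, CASAVA 1.4, Cufflinks and TopHat2 2.0.11 come from the submitters' processing notes, which give no role for each. No source used here gives the settings. Each deposited start was a multiple of 200 and each end 199 above one, so width was end - start + 1, and positions are printed 1-based with both ends included. The expression table was not used, because its genes have no dm3 positions. Without a dm3 genome or annotation, no gene or sequence is given for a peak.

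Gaps are the bases between the edges of peaks on 1 arm. Tag numbers were solved from the scores, with a search from 5 tags per window. The interval functions and the solving of scores were tested on simulated data. Python 3.11.15, numpy 2.4.6, pandas 2.3.3, scipy 1.17.1 and matplotlib 3.10.9 were used. With 1 library no test across samples was possible. Named peaks were the 5 highest by score per kb and by score, the 3 most isolated, the longest run and the leader of each arm. The members, limits and rules were chosen with earlier results of these data known. The solving of scores, the chains, the 1 Mb bins and the chain with the most members were added after the values were seen. Alternatives changed the width limit, the arms, a minimum score, the definition of a wide domain and how gaps are measured.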

Additional observations from a re-analysis of the deposited data

How the results depend on the processing

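Of 30 alternatives tried on the 5 main results, 18 left the value within the 95% binomial interval of the median or within 1.5 times the count, and 12 moved it. With a limit of 600 bp there were 282 members with a median score per kb of 109.0, and with 2000 bp there were 2989 with 55.0. Keeping only peaks at or above the median score of the list left 103 members, with a median score per kb of 179.6, a gap to the next peak of 1200 bp and a distance to the nearest wide domain of 162.5 kb (162500 bp). That distance was 21600 bp with domains of at least 5 kb, 34600 bp with the widest 10% of autosomal peaks and 2416700 bp with the 24 domains of at least 20 kb. Measured between centres, the gap was 2800 bp. Adding the Het scaffolds, leaving out chromosome 4 and taking width as end - start moved none of the 4 main values past those limits. Of 6 alternatives added after seeing the data, the share of short peaks on chromosome 4 was 10.7% at 600 bp and 85.7% at 2000 bp, where that of all autosomal peaks was 4.34% and 46.0%, the number of lone members was 250 with chains joined at 2 kb, and the other 3 stayed within the limits, among them 57.3% of windows with a multiple of 3 tags at a tolerance of 1e-09. No paired analysis was possible because the series holds 1 ChIP library. How many independent reads lie behind the tags of a member was not tested.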

Other observations

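Outside the main arms, 21 peaks lay on heterochromatic or unplaced scaffolds, and 13 of them were at most 1000 bp wide, namely 1 of 3 on 3RHet, 4 of 9 on U and 8 of 8 on Uextra. The highest score per kb of the whole list, 2985, was that of a 400 bp peak on U with a score of 1194, compared with 504.9 per kb for the highest member. The scaffolds U and Uextra gather sequence not placed on a chromosome. All 21 peaks count among the 7885 of the whole list, and Uextra gave some of the peaks of 1 window from which the scale of the score was solved. The short peak on 3RHet enters the alternative that adds the Het scaffolds.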
